A study of Homo sapiens with 11 samples.

Results

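The genes described here encode 9 factors that recognize the 3′ end of introns. Selection was by gene name, with earlier results of these data known. They were U2AF1, U2AF2, U2AF1L4, SF1, ZRSR2, SF3B1, SF3A1, PUF60 and RBM39, 9 of the 57773 genes in the expression table, and each was listed once. The same names selected 97 of the 92662 distinct events in the tables of alternative splicing. RNA-seq was performed on 9 libraries from HCC78 cells, an established lung adenocarcinoma line that carries an SLC34A2-ROS1 fusion and, on its own, a heterozygous S34F mutation of U2AF1. Every group therefore expressed some S34F mRNA, the parental cells included. Cells were transduced with a lentiviral pTRIPZ construct that adds epitope-tagged U2AF1, either wild-type (WT) or S34F, when doxycycline (dox) is given, and stable subclones were used. The groups were WT dox+ (n = 2), S34F dox+ (n = 2), WT dox- (n = 2), S34F dox- (n = 1, replicate 2) and the untransduced parental line (n = 2). The labels place the parental libraries without doxycycline, whereas a supplementary table of the study heads them as treated, so their doxycycline status is uncertain. A single construct line stood for each allele, so the allele and the line cannot be told apart between lines, nor doxycycline and the construct within a line.

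At the 3′ end of an intron, SF1 binds the branch point, the large subunit U2AF2 (U2AF65) binds the polypyrimidine tract and the small subunit U2AF1 (U2AF35) contacts the terminal AG dinucleotide. SF1 is then replaced by the U2 snRNP, whose SF3A and SF3B subcomplexes, including SF3A1 and SF3B1, hold the branch point helix. U2AF1L4 and ZRSR2 are relatives of U2AF1, the latter working mainly on minor, U12-type introns, while PUF60 and RBM39 are RNA-binding proteins that resemble U2AF2. Serine 34 of U2AF1 lies in a zinc finger that touches RNA, and S34F is a recurrent mutation in lung adenocarcinoma and myeloid neoplasms.

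The table holds FPKM, which scales fragments by transcript length and by library size, but no counts, and the depth behind each value is unknown. Between 15736 and 20896 genes reached 1 FPKM in the 4 dox+ libraries and between 13661 and 14688 in the other 5, a number that moves with induction, and its part in the results below was not tested. All 10 epithelial and lung markers examined were detected, with EPCAM at 407 to 545 FPKM, KRT7 at 2873 to 4196 and NKX2-1 at 49.1 to 67.8. ROS1 was lower, at 8.63 to 37.8 FPKM. NAPSA was lowest, at 1.73 to 9.97, which is below the blood marker CD68, at 13.5 to 34.4. The 8 markers of blood, endothelial and stromal cells that could be matched summed to 20.9 to 42.0 FPKM, against 8529 to 11570 for the epithelial list, and most of it was CD68. As RNA came from whole cultures, fewer cells expressing a gene and less RNA per cell cannot be told apart. The labels do not say whether replicates were separate cultures, so p-values measure the spread between these libraries, which may be technical.

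The 9 genes covered a wide range of expression. RBM39 had the highest mean over the 9 libraries, at 182.7 FPKM, followed by SF1 (181.9), U2AF1 (168.7), SF3A1 (148.9), U2AF2 (135.8) and SF3B1 (131.6), and the libraries of each of these 6 genes overlapped with those of its neighbour in the order. PUF60 was lower, at 48.5 FPKM, ZRSR2 lower again at 10.5 and U2AF1L4 lowest at 2.60. These last steps were without overlap, with SF3B1 above PUF60, PUF60 above ZRSR2 and ZRSR2 above U2AF1L4 in 9 of 9 libraries. RBM39 varied least, with a coefficient of variation of 4.31% and a ratio of highest to lowest library of 1.14. The corresponding values for U2AF1, the gene that the construct expresses, were 46.2% and 2.91.

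**Figure D1:**
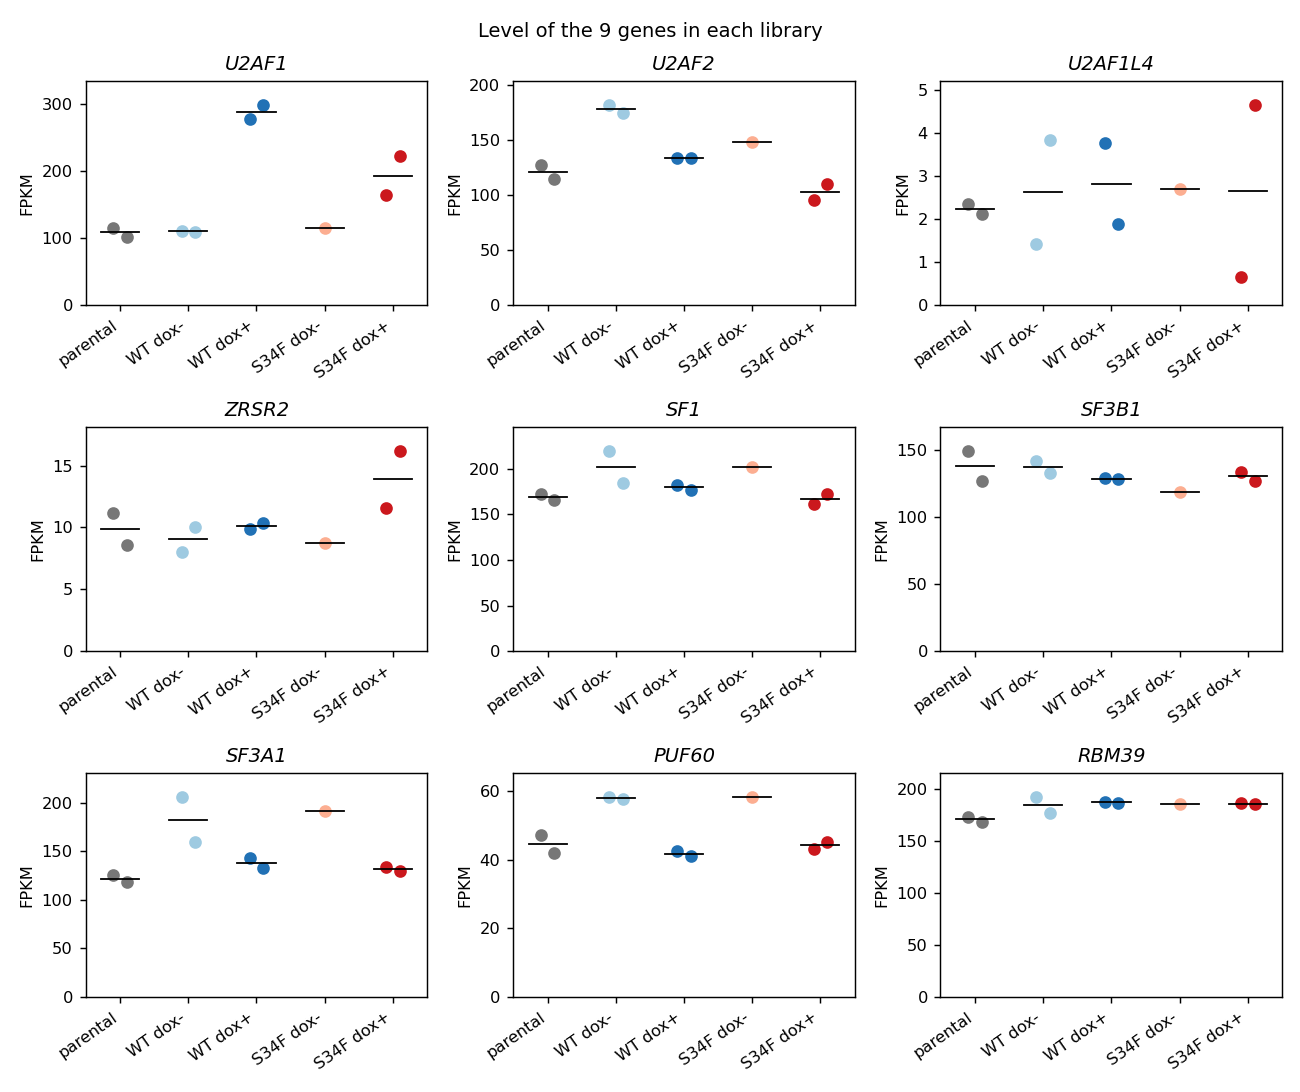
Expression of each of the 9 genes in FPKM (vertical axes, from 0, 1 scale per panel) by group (horizontal axes). Points are libraries and bars are group means. U2AF1 stands highest in WT dox+, between 278 and 299 FPKM, while U2AF2, SF1, SF3A1 and PUF60 stand highest in the uninduced WT and S34F lines.

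U2AF1 was examined first, as a check of the labels. Its FPKM, which does not separate the construct from the endogenous gene, reached 277.6 and 299 with WT induction and 164 and 223 with S34F induction. It was 111.5 and 109.9 in WT dox-, 115.1 in S34F dox-, and 114.9 and 102.8 in the parental cells. All 4 induced libraries therefore lay above all 5 others, and both WT dox+ libraries lay above both S34F dox+ libraries. On the log2(FPKM + 1) scale, which understates the change of genes with low values, U2AF1 was 1.37 ± 0.15 higher (SE, 2.59-fold) in WT dox+ than in WT dox-, with a 95% confidence interval of 1.02 to 1.72. Among the 15179 genes tested, those averaging at least 1 FPKM, it ranked sixth by p in that comparison. Its adjusted p was 0.0506 (limma, Benjamini-Hochberg over all genes tested), just past the threshold of 0.05. With a pseudocount of 0.1 the adjusted p was 0.0472, and with protein-coding genes only it was 0.00894, within a range of 0.00894 to 0.464 over all alternatives, the highest being without WT dox+ replicate 2. In the S34F line the difference with induction was 0.73 ± 0.18 (SE), or 1.66-fold, with a limma adjusted p of 0.164. Between the induced lines U2AF1 was 0.59 ± 0.15 lower with the S34F than with the WT construct (limma adjusted p = 0.531), and the difference between both induction responses was -0.64 (limma adjusted p = 1). Without S34F dox+ replicate 1 these were -0.37 and -0.42. The uninduced lines and the parental cells differed by 0.05 ± 0.14, with an interval of -0.27 to 0.38.

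The labels give the S34F share of U2AF1 mRNA for each library, which allowed U2AF1 FPKM to be divided by allele. The share was 12 and 14% in WT dox+, 62 and 65% in S34F dox+, 33 and 33% in WT dox-, 28% in S34F dox- and 32 and 32% in the parental cells. S34F mRNA then amounted to 33.3 and 41.9 FPKM in WT dox+, 102 and 144.8 in S34F dox+, 36.8 and 36.3 in WT dox-, 32.2 in S34F dox-, and 36.8 and 32.9 in the parental cells. The lower S34F share in WT dox+ thus came with an S34F level of 37.6 ± 6.05 FPKM (SD, n = 2), against 34.8 ± 2.76 (SD, n = 2) in the parental cells, a ratio of 1.08. Wild-type mRNA amounted to 244.3 and 257 FPKM in WT dox+, 62.5 and 78.0 in S34F dox+, 74.7 and 73.7 in WT dox-, 82.8 in S34F dox-, and 78.2 and 69.9 in the parental cells. The level of the induced allele was 3.39 times the parental level for WT and 3.54 times for S34F, whereas the level of the other allele was 1.08 and 0.949 times the parental one. These products inherit the rounding of the shares to whole percents and carry no test.

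**Figure D2:**
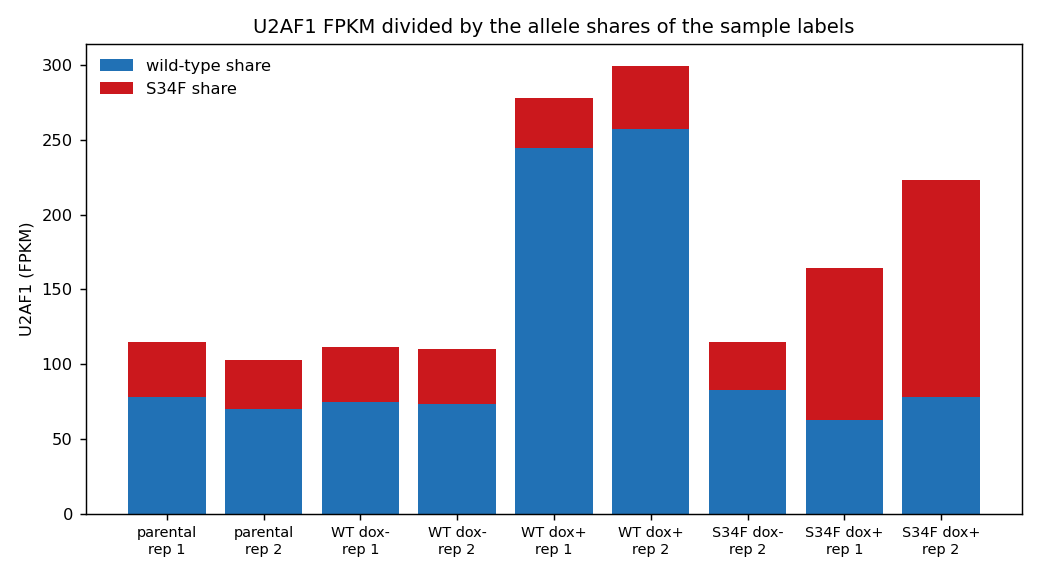
U2AF1 FPKM in each of the 9 libraries (bars from 0), divided by the allele shares that the labels give. In the WT dox+ libraries the wild-type part reaches 244.3 and 257 FPKM, and in the S34F dox+ libraries the S34F part reaches 102 and 144.8, while the remaining parts lie between 32.2 and 82.8.

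U2AF2, the partner of U2AF1 in the U2AF heterodimer, was at 134 and 134 FPKM in WT dox+ and at 95.95 and 110.6 in S34F dox+. Without induction it was at 182 and 174 in WT dox- and 148 in S34F dox-, and it was at 128 and 115 in the parental cells. The S34F dox+ libraries were the lowest of the 9 and the 3 uninduced libraries were the highest. U2AF2 was 0.41 ± 0.11 lower on the log2 scale in WT dox+ than in WT dox- (limma adjusted p = 0.198), and 0.52 ± 0.14 lower in S34F dox+ than in S34F dox- (limma adjusted p = 0.175). It was 0.38 ± 0.11 lower with S34F than with WT induced (limma adjusted p = 0.56), and 0.42 ± 0.10 higher in the uninduced lines than in the parental cells (limma adjusted p = 0.161). None of these passed the threshold. The ratio of U2AF1 to U2AF2, both in FPKM, averaged 2.15 ± 0.10 (SD, n = 2) for WT dox+ libraries and 1.86 ± 0.21 (SD, n = 2) for S34F dox+ libraries. It was 0.621 ± 0.012 in WT dox- (SD, n = 2), 0.777 in S34F dox-, and 0.897 ± 0.0044 in the parental cells (SD, n = 2), so that U2AF1 mRNA exceeded U2AF2 mRNA in the induced libraries only.

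SF3A1, a subunit of SF3A in the U2 snRNP, was at 143 and 132.9 FPKM in WT dox+ and at 134 and 129.7 in S34F dox+. It was at 206 and 159 in WT dox-, 191 in S34F dox-, and 126 and 118 in the parental cells. The 3 uninduced libraries again lay above the other 6. Its largest difference was between the uninduced lines and the parental cells, 0.61 ± 0.13 on the log2 scale or 1.52-fold, with a limma adjusted p of 0.121. It was 0.39 ± 0.13 lower with induction in the WT line (limma adjusted p = 0.274) and 0.54 ± 0.16 lower in the S34F line (limma adjusted p = 0.213). Without WT dox- replicate 1, its highest library, the former value was -0.20. Between S34F dox+ and WT dox+ it differed by -0.07, with an interval of -0.38 to 0.24.

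PUF60, which binds polypyrimidine tracts, was at 42.5 and 41.1 FPKM in WT dox+, 43.1 and 45.4 in S34F dox+, 58.5 and 57.8 in WT dox-, 58.5 in S34F dox-, and 47.3 and 42.1 in the parental cells. The uninduced libraries were within 1 FPKM of each other and above the rest. PUF60 was 0.47 ± 0.11 lower with induction in the WT line (limma adjusted p = 0.164) and 0.40 ± 0.13 lower in the S34F line (limma adjusted p = 0.24). It was 0.38 ± 0.10 higher in the uninduced lines than in the parental cells (limma adjusted p = 0.186).

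SF1, the branch point binding protein, had the same order by a small margin. It was at 183 and 177 FPKM in WT dox+, 161 and 172 in S34F dox+, 219.7 and 184 in WT dox-, 202 in S34F dox-, and 173 and 166 in the parental cells. The lowest uninduced library, at 184, was just above the highest of the others, at 183. SF1 was 0.25 ± 0.10 higher in the uninduced lines than in the parental cells (limma adjusted p = 0.373), 0.16 ± 0.11 lower with induction in the WT line and 0.27 ± 0.14 lower in the S34F line. Its WT value was -0.04 without WT dox- replicate 1 and -0.29 without WT dox- replicate 2.

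U2AF2, SF3A1, PUF60 and SF1 thus made up 4 of the 9 genes in which all 3 uninduced libraries exceeded the other 6, a division that was drawn after their values were seen. Of all genes tested, 817 of 15179 (5.38%) had this order, and 9 of 46 other spliceosome genes did, among them EFTUD2, PHF5A, SF3B4, PRPF19 and SUGP1. The opposite order was found in 0 of the 9 genes, 0 of the 46 and 5.94% of all genes. Because the comparisons of induced with uninduced lines and of uninduced lines with the parental cells share the uninduced libraries, a value particular to those 3 libraries enters each of them.

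Promoters are shown for U2AF2 and SF3A1, the 2 of these genes with the largest differences between uninduced and parental cells, and for U2AF1. The FPKM of U2AF1 includes the construct, so it cannot tell whether the endogenous gene had that order. The U2AF1 window is therefore no contrast to the others. RefSeq promoter windows, 250 bases before to 50 after the start, were found for 7 of the 9 genes in GRCh38.p14 and are unrelated to the promoter of the construct. They are U2AF1 at chr21:43107521-43107820 (minus strand), U2AF2 at chr19:55654785-55655084 (plus strand) and SF3A1 at chr22:30356845-30357144 (minus strand), each printed 5′ to 3′. Capitals mark matches, on either strand and with overlaps counted, to GGGCGG, the letters searched for the GC box, or to CCGGAAG, those searched for an ETS site. The CCAAT motif and, for the TATA box, the letters TATAAA were searched likewise.
U2AF1: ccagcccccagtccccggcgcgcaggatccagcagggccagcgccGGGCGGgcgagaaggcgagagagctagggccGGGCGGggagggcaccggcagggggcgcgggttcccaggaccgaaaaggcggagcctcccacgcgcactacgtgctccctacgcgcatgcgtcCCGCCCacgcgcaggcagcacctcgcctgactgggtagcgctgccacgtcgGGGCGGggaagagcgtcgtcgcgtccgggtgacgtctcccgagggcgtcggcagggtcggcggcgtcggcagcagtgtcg
U2AF2: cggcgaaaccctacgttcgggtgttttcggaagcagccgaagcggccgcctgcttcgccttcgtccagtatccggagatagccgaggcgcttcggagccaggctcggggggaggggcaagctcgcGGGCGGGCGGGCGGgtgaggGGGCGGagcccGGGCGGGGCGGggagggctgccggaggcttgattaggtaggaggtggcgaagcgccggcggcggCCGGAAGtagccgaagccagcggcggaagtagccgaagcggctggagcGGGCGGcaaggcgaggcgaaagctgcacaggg
SF3A1: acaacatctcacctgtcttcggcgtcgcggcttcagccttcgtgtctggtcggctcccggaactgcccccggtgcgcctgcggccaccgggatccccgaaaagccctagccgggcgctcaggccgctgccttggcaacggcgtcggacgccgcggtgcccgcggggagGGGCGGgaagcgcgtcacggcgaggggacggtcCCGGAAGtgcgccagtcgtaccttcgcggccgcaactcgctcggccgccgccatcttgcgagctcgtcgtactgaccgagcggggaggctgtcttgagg
The GC box occurred 4 times in the U2AF1 window, 7 times in that of U2AF2 and once in that of SF3A1, and it was found in 45.0% of the 35116 promoter windows of the same length. The ETS letters occurred once each in the U2AF2 and SF3A1 windows and not in that of U2AF1, against 10.3% of all windows. CCAAT and TATAAA, in 34.6% and 11.5% of all windows, were in none of these 3. The window of SF1, a gene that also showed that order, held the GC box 3 times, CCAAT 3 times and the ETS letters 0 times. A match describes the letters and not a bound site.

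The remaining genes showed smaller or less regular differences. SF3B1, the branch point subunit that is itself mutated in myeloid neoplasms, was at 128.4 and 127.9 FPKM in WT dox+, 133.4 and 126.9 in S34F dox+, 141 and 132.8 in WT dox-, 118 in S34F dox-, and 149 and 126 in the parental cells. The libraries of SF3B1 overlapped between the induced lines and between uninduced and parental cells, and its difference between S34F dox+ and WT dox+ was 0.02, with an interval of -0.24 to 0.28, and turned to -0.10 with TPM. RBM39, the target of the aryl sulfonamide degraders, was at 188 and 187 FPKM in WT dox+, 187 and 185 in S34F dox+, 192.8 and 177 in WT dox-, 186 in S34F dox-, and 173 and 169 in the parental cells. Its differences with induction were 0.02 (interval -0.19 to 0.23) in the WT line and 0.00 (interval -0.26 to 0.26) in the S34F line, and both turned slightly negative, to -0.02 and -0.07, with median-ratio scaling.

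ZRSR2 was at 9.84 and 10.3 FPKM in WT dox+, 11.6 and 16.2 in S34F dox+, 8.05 and 10.1 in WT dox-, 8.75 in S34F dox-, and 11.2 and 8.62 in the parental cells. Both S34F dox+ libraries were the highest of the 9. The difference was 0.41 ± 0.21 against WT dox+ (limma adjusted p = 0.763) and 0.59 ± 0.25 against S34F dox- (limma adjusted p = 0.316). S34F dox+ replicate 2, the higher of both, also had the most genes at 1 FPKM or above, and without it the former difference was 0.18 and the latter 0.37. U2AF1L4 was at 3.77 and 1.88 FPKM in WT dox+, 0.66 and 4.65 in S34F dox+, 1.43 and 3.84 in WT dox-, 2.70 in S34F dox-, and 2.36 and 2.11 in the parental cells. Except in the parental cells, replicates of U2AF1L4 differed by more than the group means did, and its intervals, such as -1.67 to 1.11 between the induced lines, were too wide for a direction.

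**Figure D3:**
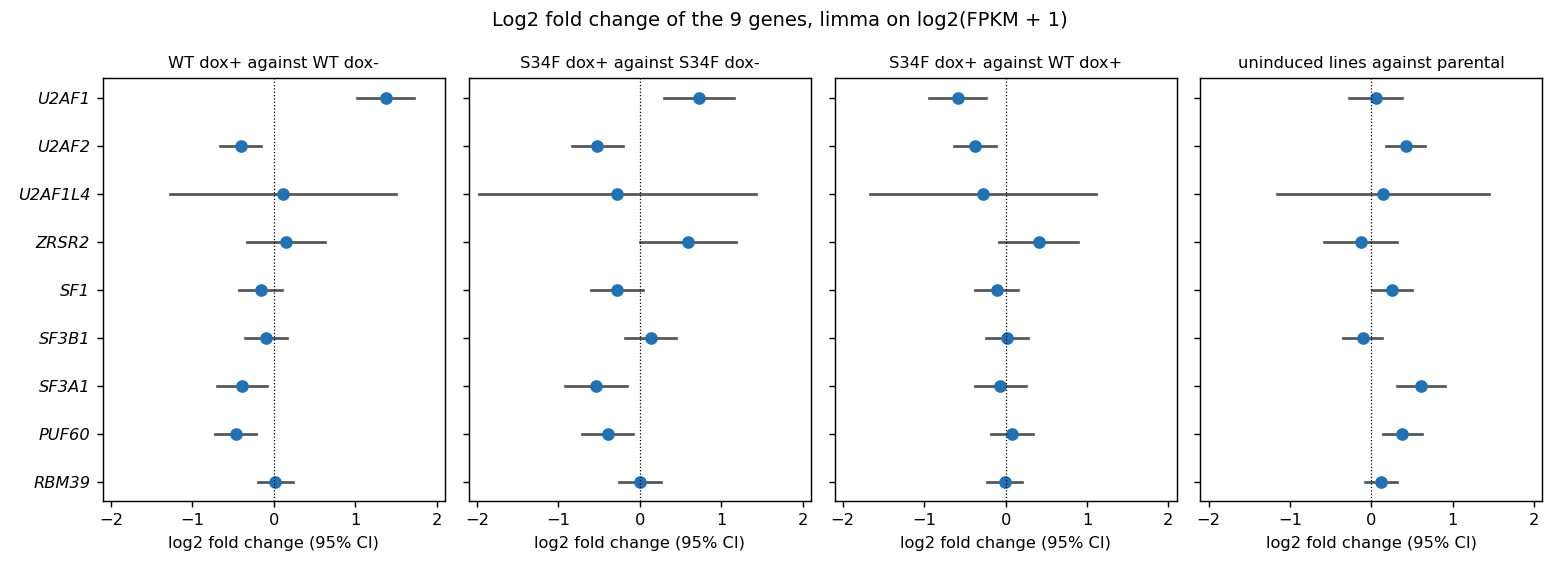
Log2 fold change of the 9 genes (points) with 95% confidence intervals (lines) on the log2(FPKM + 1) scale in 4 comparisons, from the single limma fit. Only the U2AF1 value for WT induction, 1.37, lies beyond 1, and the intervals of RBM39 include 0 in every panel.

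None of the 9 genes had a limma adjusted p under 0.05 in any comparison. All 9 passed the filter on low values. Over all genes tested, the share called was 0.0527% between S34F dox+ and WT dox+, 0.0132% for WT induction, 0.283% for S34F induction, 0.0264% for the difference between both responses and 0.244% between uninduced lines and parental cells. At an unadjusted p under 0.05, limma gave 2, 4, 5, 1 and 4 of the 9 genes in these 5 comparisons, in that order, against 6.78, 14.4, 15.8, 3.42 and 13.1% of all genes. U2AF1, whose FPKM includes the construct, is counted among the 9 genes at that level in every comparison but the last. The libraries of the groups did not overlap for 6 of the 9 genes between S34F dox+ and WT dox+ and for 6 in WT induction, while 35.8% and 49.6% of all genes did not overlap there. U2AF1 is among the 6 in both. Between uninduced lines and parental cells 5 of the 9 did not overlap, against 33.2% of all genes. The median log2 fold change of the 9 genes was -0.07, -0.09, -0.27, -0.11 and 0.14 in the 5 comparisons, beside 0.03, 0.05, 0.09, 0.04 and -0.01 over all genes.

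Other proteins of the U2 snRNP and of the core spliceosome were examined as a list of 47 genes, drawn up with earlier results known. Of these genes, 46 were tested. None was called in any comparison by limma. With WT induction 36 of the 46 had a negative fold change and 10 a positive one, with a median of -0.14. At an unadjusted p under 0.05, 7 were lower and 1 was higher, where 5.59% of all genes were lower and 8.80% higher. With S34F induction 38 were negative and 8 positive, with a median of -0.21, and 8 were lower and 0 higher at that level, against 5.11% and 10.6% of all genes. In the uninduced lines against the parental cells, 39 were positive and 7 negative, with a median of 0.14, and 4 were higher and 0 lower, against 6.21% and 6.86% of all genes. Between S34F dox+ and WT dox+ the split was 29 negative to 17 positive, with a median of -0.06, and 4 were lower and 1 higher, against 2.77% and 4.01% of all genes. For the difference between both responses it was 27 to 19, with a median of -0.07 and 0 genes at that level.

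By size, RBM5, an RNA-binding protein that acts on 3′ splice site choice, stood at 0.64 ± 0.13 with WT induction (limma adjusted p = 0.141) and at 0.27 with S34F induction. GPATCH8 was at 0.27 with WT induction, and SLU7, a second-step factor, was at 0.10 with S34F induction and 0.35 between S34F dox+ and WT dox+. On the lower side, PHF5A, which joins SF3B1 in the branch point pocket, was at -0.55 with WT and -0.51 with S34F induction. EFTUD2, a GTPase of the U5 snRNP, was at -0.63 with S34F induction. The helicase DHX8 was at -0.66 with WT induction, a value that rested on WT dox- replicate 1, at 57.6 FPKM against at most 25.6 in the other 8 libraries, and it was -0.02 without that library. RBM23, a relative of RBM39, was at -0.34 and the helicase SNRNP200 at -0.30 between S34F dox+ and WT dox+, where SUGP1 was at 0.21. SF3A3, the SF3A partner of SF3A1, was at 0.41 and DHX38 at 0.34 in the uninduced lines against the parental cells, where SF3B6 was at -0.12 and RBM5 at -0.07. Without parental replicate 2, SF3A3 was at 0.14 and DHX38 at 0.08. For the difference between both responses, SLU7 was at 0.42, CHERP at -0.38 and DHX8 at 0.64, which was 0.01 without WT dox- replicate 1.

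**Figure D4:**
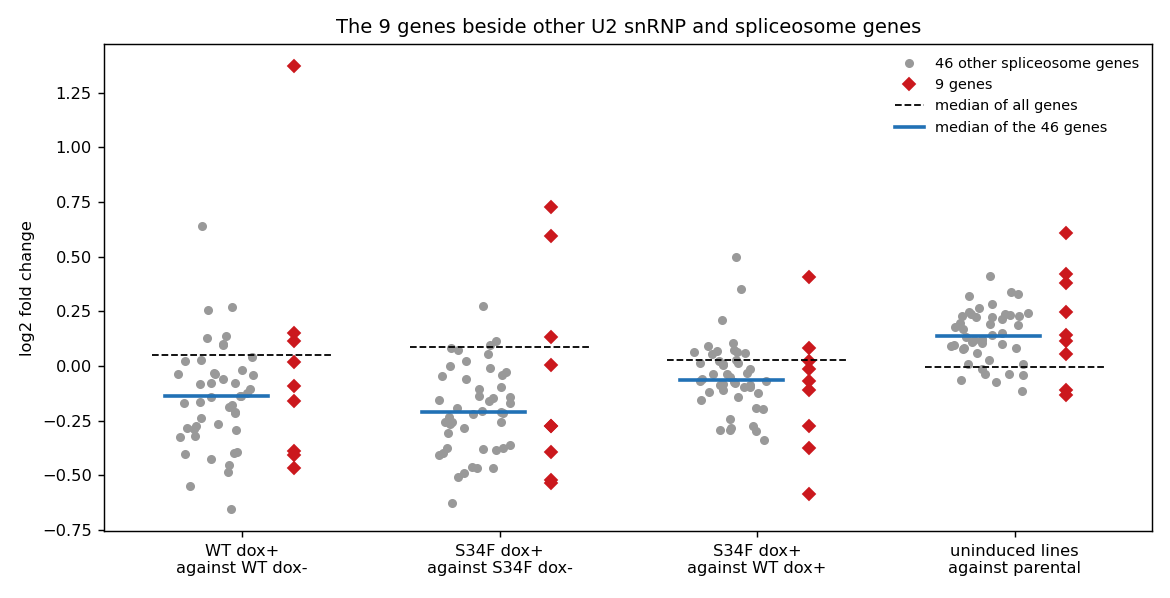
Log2 fold change (vertical axis) of 46 other spliceosome genes (grey points) and the 9 genes (red diamonds) in 4 comparisons, with the median of the 46 (blue line) and of all 15179 genes (dashed line). The blue line lies below the dashed line with induction, at -0.14 and -0.21, and above it in the uninduced lines against the parental cells, at 0.14.

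The pattern of U2AF1 across the 9 libraries, which the construct sets, was compared with that of 10024 genes averaging 5 FPKM or more. The closest by Pearson correlation of log2(FPKM + 1) were AHSA2 (r = 0.958), MBD6 (0.957), GDE1 (0.954), AHNAK (0.949) and SPTBN1 (0.947). Of the factors themselves, RBM39 (0.498) and ZRSR2 (0.463) were the nearest, and PUF60 (-0.629) was the farthest, with U2AF2 at -0.325. The libraries share 5 groups, so these values describe the order of group levels.

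Splicing within the 9 genes was described from PSI, the fraction of transcripts of an event assigned to a given form, as estimated by MISO for cells overexpressing S34F or WT U2AF1. For skipped exons it was read as inclusion, and for other types the form it refers to was not established. In U2AF1 an alternative 5′ splice site event that lists chr21:44521542-44524421 before chr21:44521542-44524425 had a PSI of 0.98 in S34F and 0.99 in WT. Skipped-exon events of U2AF1 use 44524425. Each condition has a single PSI, with no replicates, and no test was made. Of the 97 events, 2 listed several isoforms and 12, all in U2AF1L4, had fewer than 10 reads in a condition, which left 83. An event was counted as apart at an absolute difference of at least 0.10 in PSI. In the 9 genes 8 of the 83 events (9.64%) were apart, 4 higher and 4 lower in S34F, against 31.3% of the 78066 events of all genes. The median absolute difference was 0.02 in the 9 genes and 0.05 over all events. By type, 3 of 35 skipped exons in the 9 genes were apart (30.3% over all genes), 1 of 12 alternative 3′ splice sites (29.9%), 0 of 12 alternative 5′ splice sites (26.8%), 4 of 17 NAGNAG events (38.4%) and 0 of 7 retained introns (30.5%).

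The share of events apart fell with the reads listed, and 55 of the 83 events listed at least 1000 S34F reads. Among events with at least 1000 S34F reads, 2 of 55 in the 9 genes and 11.1% of all were apart, and among those with 500 or more but under 1000 it was 1 of 11 and 20.3%. With 100 or more but under 500 it was 2 of 6 and 32.8%, and with 10 or more but under 100 it was 3 of 11 and 48.8%. Reads are not specific to a junction, since 26 of the 83 events list the same pair of read numbers as another event of their gene. In 5 of the 8 events apart, a PSI lies between 0.45 and 0.55 in a condition, against 33.0% of all events apart and 18.4% of all events.

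The largest difference was in U2AF2 itself, at a NAGNAG acceptor, where AG dinucleotides 3 nt apart compete. The event of chr19:56173200-56173868 and chr19:56173200-56173871 had a PSI of 0.49 in S34F and 0.18 in WT. This event listed 77 and 147 reads. Its coordinates are in GRCh37, as are all splicing coordinates given here. The same acceptors joined from chr19:56172555 had a PSI of 0.02 in S34F and 0.01 in WT (1077 and 1925 reads). An exon joined by chr19:56172555-56173137, which begins before 56173200, was included at 0.07 in S34F and 0.03 in WT. SF1 had a NAGNAG event with a PSI difference of opposite sign, at 0.39 in S34F and 0.62 in WT for chr11:64545621-64545834 and chr11:64545618-64545834 (311 and 535 reads). In SF3B1, PSI was 0.46 in S34F and 0.59 in WT for chr2:198283312-198283620 and chr2:198283309-198283620 (542 and 828 reads). The same acceptors joined from chr2:198285152 had a PSI of 0.01 in both conditions (5602 and 9118 reads). An exon joined by chr2:198283675-198285152 was included at 0.02 in S34F and 0.01 in WT. A NAGNAG event of PUF60 had a PSI of 0.48 in S34F and 0.36 in WT (185 and 299 reads). PSI was thus higher in S34F in U2AF2 and PUF60 and lower in SF1 and SF3B1, but which acceptor was used more in S34F was not established. The SF1 exon joined by chr11:64545618-64545834, an acceptor of the SF1 event, was included at 0.17 in S34F and 0.14 in WT. The apart NAGNAG events of U2AF2, SF1 and SF3B1 thus involved exons of low inclusion.

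Both apart events of ZRSR2 listed few reads, and how many of these bear on either form is not known. An alternative 3′ splice site event, of chrX:15809136-15817995 and an acceptor 11 nt further downstream, had a PSI of 0.48 in S34F and 0.29 in WT (72 and 131 reads). An exon joined by chrX:15822320-15826356, against the skipping junction chrX:15822320-15827323, had a PSI of 0.40 in S34F and 0.63 in WT (71 and 131 reads). These were 2 of the 3 ZRSR2 events kept.

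In U2AF1 the apart events both involved an exon of 67 nt at chr21:44521476-44521542 on the minus strand. U2AF1 is known to carry a pair of alternative exons of which a transcript usually includes 1, giving the U2AF35a and U2AF35b isoforms. Against a direct junction to the next exon, which begins at 44520629, this exon had a PSI of 0.05 in both conditions, with 1673 S34F and 3868 WT reads. Its inclusion against the junction chr21:44515853-44524425, which skips both, was 0.46 in S34F and 0.33 in WT (1303 and 2827 reads). Among transcripts that contain it, that next exon was included at 0.60 in S34F and 0.70 in WT (1516 and 3367 reads). The next exon was itself included at 0.99 in S34F and 1.00 in WT against skipping of both. The apart events of U2AF1 therefore concerned forms that were a small part of its mRNA. Reads from the construct can enter these values, and their part was not tested. The remaining 6 U2AF1 events differed by at most 0.01.

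RBM39 had the most events, and 0 of its 30 events kept were apart. The nearest, a skipped exon at 0.78 in S34F and 0.87 in WT, had 10 and 15 reads. The next events below the threshold were an alternative 5′ splice site in SF1, at 0.93 and 0.85 with 2414 and 3753 reads, and a NAGNAG event in U2AF1L4, at 0.57 and 0.49 with 39 and 41 reads. In U2AF1L4 0 of 4 events were apart, and SF3A1 had no listed event.

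**Figure D5:**
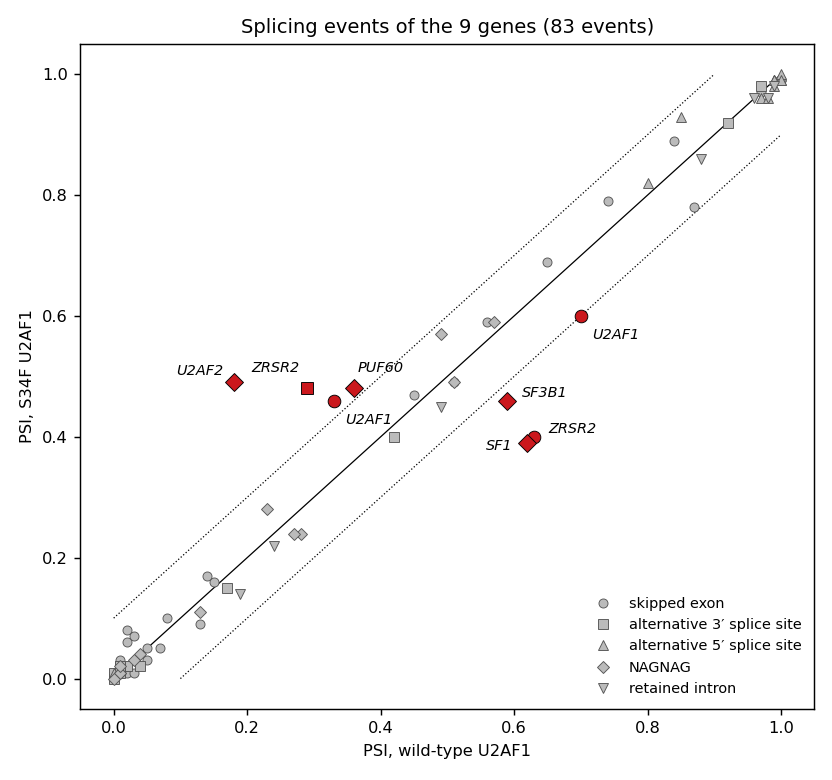
PSI of the 83 events in the 9 genes in S34F (vertical axis) against WT (horizontal axis), both as fractions, with marker shape for the event type. The solid line marks equal PSI and the dotted lines a difference of 0.10, and the 8 red events with gene names lie on or beyond them.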

How the data were processed

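RNA-seq of 9 HCC78 libraries was used. Per the submitters' processing notes, the authors aligned reads to GRCh37 (hg19) with STAR 2.3.0 and deposited FPKM and TPM per gene from RSEM 1.2.29, without counts. The authors also deposited PSI, a fraction estimated by MISO, with counts of reads, for 5 event types. Those tables list a difference in PSI and a Bayes factor too, which are the authors' own comparison and were not used. The study describes the splicing comparison as one of cells overexpressing each allele, and how replicates entered each PSI is not given in the sources used here. PSI was read as inclusion for skipped exons, and the form it refers to was not established for the other types. iCLIP samples were not analysed here.

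The 9 genes and all lists were chosen with earlier results of these data known. The 15179 genes averaging at least 1 FPKM were fitted as log2(FPKM + 1) with limma-trend 3.58.1 in R 4.3.3, with 5 groups in a single fit, two-sided, Benjamini-Hochberg adjusted over all genes tested. S34F dox- has 1 library, whose spread was taken from the other groups. Other spliceosome genes were named by size, the 2 highest and 2 lowest per comparison averaging at least 5 FPKM, since none was called, and 1 gene that this rule names is not reported here. U2AF1L5 was not matched. The fit was tested on simulated data. Events were kept with 1 PSI per condition and at least 10 reads in each. Alternatives were the pseudocount, the minimum FPKM, median-ratio scaling, TPM, protein-coding genes, a replicate block, each library left out, and thresholds on events. Same-numbered replicates were compared by the correlation of their deviations from group means.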

Additional observations from a re-analysis of the deposited data

Results flagged for a closer look

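The fitted values of SF3B1 with induction had opposite signs in the transduced lines, although neither they nor their difference passed the test. Both WT dox+ libraries, at 128.4 and 127.9 FPKM, lay below both WT dox- libraries, at 141 and 132.8, and the difference was -0.09 on the log2 scale, with an interval of -0.35 to 0.16. Both S34F dox+ libraries, at 133.4 and 126.9, lay above the single S34F dox- library, at 118, and the difference was 0.13, with an interval of -0.18 to 0.45. The responses differed by 0.23, with a limma adjusted p of 1. With TPM this fell to 0.08 and the S34F value to 0.01. With 1 S34F dox- library, its spread is assumed to be that of the other groups.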

How the results depend on the processing

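The differences of U2AF2, PUF60 and SF3A1 within each line and against the parental cells, and that of U2AF1 with induction, kept their direction under every alternative run. The WT induction of U2AF1 was called with a pseudocount of 0.1 (1.38) and with protein-coding genes only (1.37). Small values changed sign. With median-ratio scaling SF3B1 was -0.01 between induced lines, and RBM39 was -0.02 with WT and -0.07 with S34F induction. With TPM, SF3B1 was -0.10 and PUF60 -0.04 between induced lines, RBM39 was -0.12 with S34F induction, PUF60 was -0.08 in the difference of responses and SF3B1 was 0.01 against the parental cells. TPM moved all genes together, with their median going from 0.03 to -0.07 between induced lines, 0.09 to -0.03 with S34F induction, 0.04 to -0.11 in the difference and -0.01 to 0.09 against the parental cells. With 1 library left out, ranges that crossed 0 were those of U2AF1L4 (-1.16 to 0.61 between induced lines, -0.38 to 0.61 with WT induction, -1.16 to 0.61 with S34F induction, -1.27 to 0.50 in the difference of responses, -0.11 to 0.39 against parental cells), RBM39 (-0.04 to 0.08 with WT induction, 0.00 to 0.01 with S34F induction, -0.08 to 0.04 in the difference), SF1 (-0.24 to 0.01) and SF3A1 (-0.33 to 0.04) in the difference, SF3B1 between induced lines (-0.01 to 0.06) and against parental cells (-0.22 to 0.01), and there also ZRSR2 (-0.30 to 0.04) and U2AF1 (-0.03 to 0.13).

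Counts of genes called were less stable than these values, and the cause was not tested. In the order induced lines, WT induction, S34F induction, difference of responses and uninduced against parental, 8, 2, 43, 4 and 37 genes were called. With no minimum FPKM they were 126, 111, 475, 496 and 460. With a pseudocount of 0.1 the first and second became 4 and 7. WT induction gave 0 with median-ratio scaling, 0 with TPM and 32 with protein-coding genes only, which gave 0 for the difference and 148 against parental cells. Leaving out 1 library gave 1 to 29, 0 to 10, 13 to 26, 2 to 11 and 4 to 20. A replicate block gave 5, 0, 4, 3 and 6, and RBM39 was -0.02 with S34F induction. In the groups with 2 libraries, same-numbered replicates did not deviate together (r from -0.076 to 0.037). Whether libraries of the same number were prepared together cannot be settled by this. At a PSI difference of at least 0.20, 3 of 83 events in the 9 genes and 9309 of 78066 (11.9%) of all were apart, and with at least 100 reads 5 of 72 and 13333 of 55398 (24.1%) were. Leaving out libraries for other spliceosome genes was chosen after seeing the data and reversed none of those named. Without counts, depth cannot be weighed, and 2 libraries per group leave little power for low genes such as U2AF1L4.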
